A study of Drosophila melanogaster with 17 samples.

Results

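Chromatin of a neural and an embryonic cell line of Drosophila melanogaster was compared. Nanopore libraries of BG3-c2 cells grown without RNA interference were set against those of Kc cells given the control dsRNA. These are 4 of the 17 libraries of the series, 2 per line, chosen by cell line, treatment and platform. The nanopore libraries of the MNase titration of BG3-c2 were left out. BG3-c2 is a line from the central nervous system of L3 larvae, and these libraries came from cells with no dsRNA. Kc is a line from embryos, and its libraries came from cells treated with dsRNA against glutathione S-transferase (GST), which serves as the control for knockdown experiments. No other genotype or agent sets the libraries apart in the labels, except that the BG3-c2 medium also held insulin. Cell line, dsRNA and insulin therefore cannot be told apart in this comparison. The study digested nuclei with micrococcal nuclease (MNase) and read the total digested DNA on nanopore devices, to measure the spacing of nucleosomes along the genome.

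MNase cuts the linker DNA between nucleosomes, so a partial digest leaves a ladder of mono-, di- and longer oligonucleosomal fragments, and the step of the ladder is the nucleosome repeat length. Total digested DNA also records how much of each chromosome the cells hold, and established fly lines are known to differ in chromosome copy number. Kc is known as a line of female and BG3-c2 as a line of male origin, mitochondrial DNA carries no nucleosomes, and the scaffolds named Het hold repeat-rich sequence from around the centromeres and from the Y chromosome.

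The BG3-c2 libraries held 630936 and 107571 aligned intervals for replicates 1 and 2, and the Kc control libraries 1603489 and 32913. The second Kc library was thus the shallowest, and it sets the precision of most comparisons below. Tables were not made alike: that of BG3-c2 replicate 2 lists no alignment score, and its longest interval was 5197 bp, against 19517 bp or more in the other 3. Check libraries outside the comparison were 2 nanopore libraries of Kc cells given dsRNA against the linker histone H1, 1 nanopore library of MNase-digested naked DNA of BG3-c2, and 2 Illumina libraries of gel-cut tetranucleosomal DNA of BG3-c2 given the GST dsRNA. Nothing in the labels says that the replicates came from separate cultures, so tests measure the spread between libraries only. With 2 libraries against 2, the smallest p an exact 2-sided permutation test can give is 0.33, and every single value below whose lines do not overlap has that p.

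All 4 libraries gave a nucleosome ladder, and short intervals were more frequent in both BG3-c2 libraries than in both Kc libraries. Over the chromosome arms (the autosomal arms of chromosomes 2 and 3, the dot chromosome 4 and X), intervals of up to 250 bp, the mononucleosomal end, made up 2.06% and 5.28% in BG3-c2 and 0.970% and 0.775% in Kc. The means were 3.67% ± 2.27 (SD, n = 2) and 0.873% ± 0.138 (SD, n = 2), a difference of 2.80 percentage points. It was 1.19 without BG3-c2 replicate 2 and 4.40 without BG3-c2 replicate 1. Intervals over 450 bp, the trinucleosomal and longer end, made up 73.9% and 70.1% in BG3-c2 and 75.5% and 91.1% in Kc. The lines did not overlap in this share either, but the Kc libraries stood farther apart from each other than BG3-c2 replicate 1 stood from Kc replicate 1. Leaving out Kc replicate 2 reduced the difference from -11.4 to -3.57 percentage points. Intervals over 1000 bp made up 18.3% and 22.7% in BG3-c2 and 24.8% and 49.2% in Kc. The median length was 591 bp in replicate 1 and 648 bp in replicate 2 of BG3-c2, with 640 and 983 bp for Kc, and these ranges overlap.

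**Figure D1:**
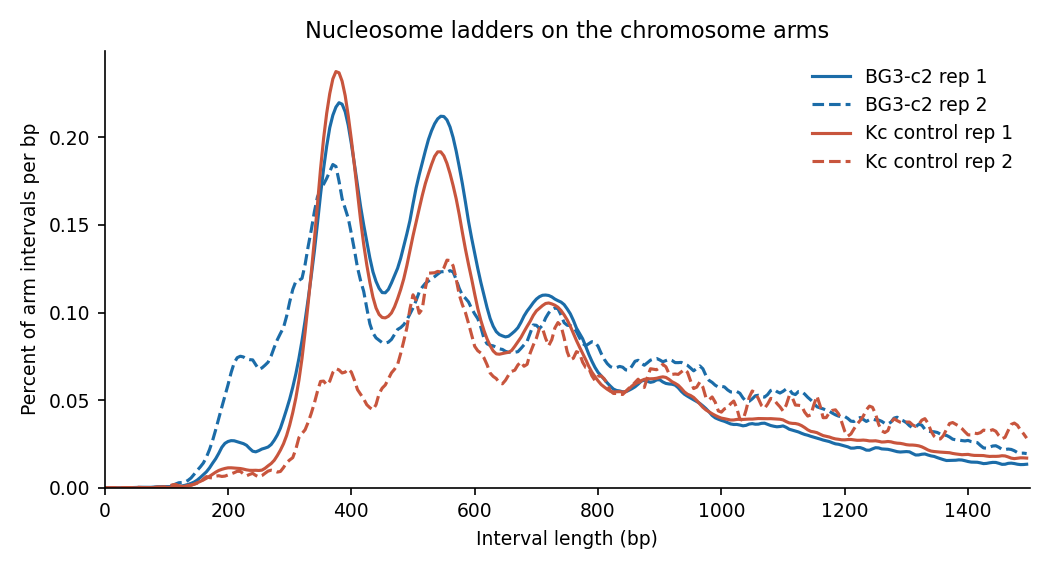
Length distribution of intervals on the chromosome arms, as percent of arm intervals per bp against interval length in bp, with BG3-c2 in blue, Kc control in red, replicate 1 solid and replicate 2 dashed. The mononucleosomal shoulder is highest in BG3-c2 replicate 2, where 5.28% of intervals were up to 250 bp, and the Kc replicate 2 curve holds the most intervals over 450 bp.

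The dinucleosomal maximum of the smoothed length histogram lay at 374 and 366 bp for BG3-c2, with 372 and 357 bp for Kc. The trinucleosomal maximum lay at 550 and 557 bp for BG3-c2, with 546 and 554 bp for Kc, and the tetranucleosomal at 740 and 731 bp against 732 and 735 bp. The positions of the first rungs of the ladder therefore overlapped between the lines. The repeat length, taken as the slope through the maxima of 2 to 5 nucleosomes, was 183.1 ± 1.81 and 187.5 ± 3.63 bp in BG3-c2 (± SE of the slope). In Kc it was 180.9 ± 1.63 and 182.8 ± 4.13 bp. The lines differed by 3.45 bp, which is less than the SE of the slope in Kc replicate 2. The difference ran from 1.25 bp without BG3-c2 replicate 2 to 5.65 bp without BG3-c2 replicate 1. On the autosomal arms alone the difference was 8.10 bp. The slopes there were 183.5 ± 1.94 and 195.7 ± 7.45 bp for BG3-c2, against 181.3 ± 1.74 and 181.7 ± 3.95 bp for Kc. With the maxima of 2 to 4 nucleosomes alone, over all arms, the difference was -1.75 bp. The size of the difference, and its direction when fewer maxima were used, therefore varied with the choice of arms and maxima.

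The depth of the valleys beside the dinucleosomal maximum also varied more within a line than between lines. Intervals per bp at that maximum exceeded those in the adjoining valleys 2.83 and 2.00 times in BG3-c2 and 3.92 and 1.78 times in Kc. At the trinucleosomal maximum the contrast was 2.07 and 1.51 in BG3-c2 and 2.15 and 2.11 in Kc. In naked DNA of BG3-c2, which was digested without histones, these contrasts were 1.06 and 0.988. The positions used there, 360 and 490 bp, lay at the lower limit of the range searched, so neither is a maximum of a ladder. Both contrasts of all 4 chromatin libraries lay above these values.

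The X chromosome held far fewer intervals in BG3-c2 than in Kc. It took 9.07% and 9.52% of all intervals in BG3-c2 and 14.1% and 14.4% in Kc. Per Mb, and relative to the autosomal arms 2L, 2R, 3L and 3R, the density on X was 0.545 and 0.554 in BG3-c2 and 0.971 and 0.992 in Kc. The replicates of each line nearly coincided and the lines were far apart, with a log2 difference of -0.84. The Kc cells given H1 dsRNA had X densities of 0.982 and 0.972, beside the Kc control. The naked DNA of BG3-c2 had 0.570, beside the BG3-c2 chromatin although it carries no nucleosomes. The tetranucleosomal BG3-c2 libraries, which share the GST dsRNA with Kc, had 0.622 and 0.661. With the 2 H1 libraries added to Kc, the log2 difference was -0.83.

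Sequence assigned to the Y chromosome was more frequent in BG3-c2 and was rare in both lines. The YHet scaffold took 601 and 70 intervals in BG3-c2 and 298 and 9 in Kc, with relative densities of 0.370 and 0.244 in BG3-c2 and 0.0826 and 0.122 in Kc. The log2 difference was 1.58, and naked DNA of BG3-c2 stood at 0.338. The tetranucleosomal BG3-c2 libraries stood at 0.528 and 1.14, and with them the log2 difference was 2.95. In those libraries the window chrYHet:100001-150000 alone held 7086 of 14848 and 4671 of 6530 intervals on YHet. Intervals of up to 250 bp made up 50.0% and 65.9% of their intervals on YHet. The 95% counting intervals of the relative density were 0.187 to 0.302 in BG3-c2 replicate 2 and 0.0423 to 0.202 in Kc replicate 2, and these overlap. Such intervals cover counting error only, since reads copied by PCR are not independent molecules. Most Kc intervals on YHet aligned with low scores. Of those in Kc, 35 of replicate 1 and 1 of replicate 2 had a score of at least 20, against 417 in BG3-c2 replicate 1, which brings the relative density to 0.010 and 0.0141 in Kc and to 0.263 in BG3-c2 replicate 1.

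Chromosome 4, the small dot chromosome, showed no clear difference. Its relative density was 1.36 and 1.08 in BG3-c2 and 1.01 and 1.08 in Kc, so BG3-c2 replicate 2 and Kc replicate 2 nearly coincided. The log2 difference of 0.22 came down to 0.05 without BG3-c2 replicate 1 and was 0.38 without BG3-c2 replicate 2. Naked DNA of BG3-c2 had 1.51, while the tetranucleosomal BG3-c2 libraries had 0.618 and 0.614, so the libraries of that line disagreed on chromosome 4.

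In the nanopore libraries of both lines, mitochondrial DNA had the highest relative density, and more so in Kc. It took 0.143% and 0.136% of all intervals in BG3-c2 and 0.501% and 0.805% in Kc. Relative densities were 9.89 and 9.07 in BG3-c2 and 39.6 and 63.9 in Kc, a log2 difference of -2.41. The H1 libraries of Kc had 43.4 and 45.6, and naked DNA of BG3-c2 had 8.05. The tetranucleosomal BG3-c2 libraries, in contrast, had 0.151 and 0.0343, and with them in place of the nanopore libraries the log2 difference was -9.45. Mitochondrial intervals were also shorter in BG3-c2. Those up to 250 bp made up 11.1% and 38.4% in BG3-c2 and 4.81% and 4.15% in Kc. On the chromosome arms that share was also higher in BG3-c2, at 2.06% and 5.28% against 0.970% and 0.775% in Kc. A higher share of short intervals was thus not confined to mitochondrial DNA. The mean share differed by 20.2 percentage points on mitochondrial DNA and by 2.80 on the arms. With a score of at least 20, the relative density was 1.95 in BG3-c2 replicate 1 and 12.8 and 21.8 in the Kc libraries.

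The heterochromatic scaffolds 2LHet, 2RHet, 3LHet, 3RHet and XHet together were less dense in BG3-c2. Their relative density was 0.874 and 0.641 in BG3-c2 and 1.22 and 1.27 in Kc, a log2 difference of -0.73. They took 5.80% and 4.39% of all intervals in BG3-c2 and 7.09% and 7.30% in Kc. XHet differed most among these scaffolds, with 1.00 and 0.938 in BG3-c2 and 3.68 and 4.06 in Kc. On 3RHet the values were 0.955 and 0.690 in BG3-c2 and 1.63 and 1.67 in Kc. The H1 libraries of Kc had 1.33 and 1.26 over the 5 scaffolds, and naked DNA of BG3-c2 had 0.750. The tetranucleosomal BG3-c2 libraries had 0.856 and 1.06, and with them in place of the nanopore libraries the log2 difference shrank to -0.39. Long intervals were more frequent there in Kc, as they were on the arms: those over 1000 bp made up 21.4% and 25.5% in BG3-c2 and 32.7% and 56.0% in Kc.

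**Figure D2:**
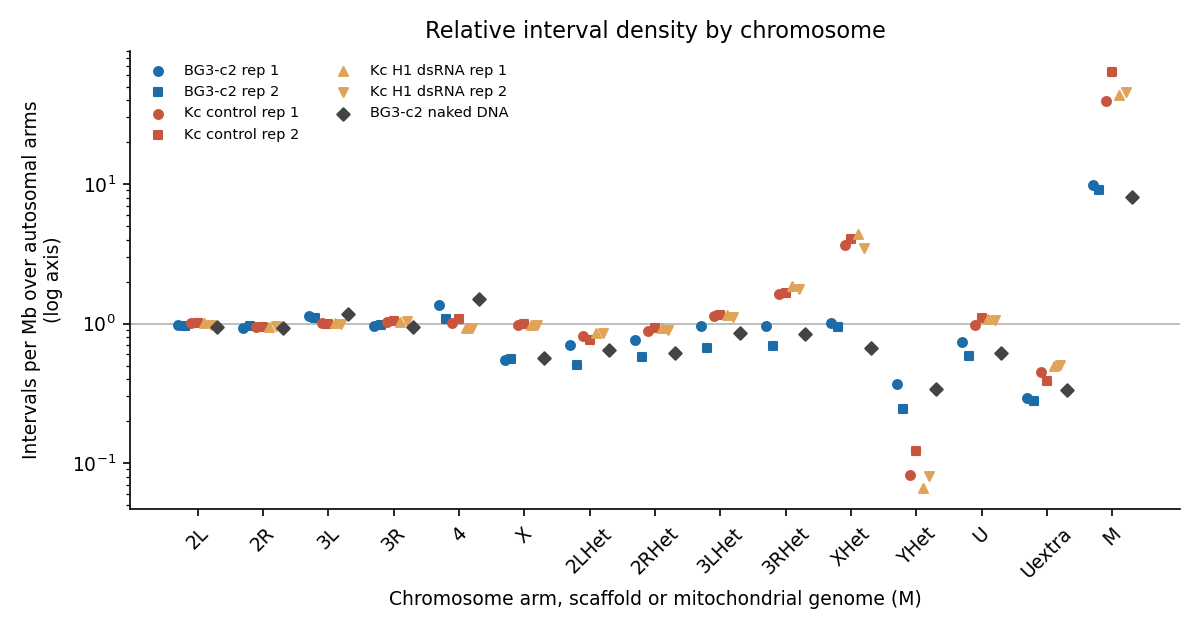
Interval density of each chromosome arm, scaffold and the mitochondrial genome (M), as intervals per Mb over those of the autosomal arms on a log axis, with 1 point per nanopore library. X, 3RHet, XHet and M lie lower in both BG3-c2 libraries than in both Kc control libraries and YHet lies higher, and naked DNA of BG3-c2 (diamonds) lies near the BG3-c2 chromatin on X, YHet and M.

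Along the genome, 50 kb windows were compared with limma on the voom scale, with Benjamini-Hochberg adjustment at 0.05 over 3370 windows. BG3-c2 was higher in 143 windows, or 4.24% of those tested, and lower in 527, or 15.6%. The counts depend on Kc replicate 1, the deepest of the 4 libraries: without it, 7 windows were higher and 142 lower. Without the shallow Kc replicate 2, 253 were higher and 723 lower, with that line resting on 1 library whose spread is taken from BG3-c2. Without BG3-c2 replicate 1, 96 were higher and 385 lower. The median autosomal window lay at -0.0435 on the log2 scale, and with the lines centred on it 148 windows were higher and 524 lower.

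The lower windows lay mostly on X. There 335 of 448 windows, or 74.8%, were lower and 2, or 0.446%, were higher, and the median log2 difference was -1.02. On the autosomal arms 82 of 1933 windows, or 4.24%, were higher and 51, or 2.64%, lower. The autosomal calls were uneven among arms. On 3L 57 windows were higher and 4 lower, on 2L 17 were higher and 28 lower, on 2R 8 were higher and 5 lower, and on 3R 0 were higher in limma, also at an unadjusted p under 0.05, and 14 were lower. On chromosome 4, 2 of 27 windows, or 7.41%, were higher. Of the scaffolds, 3RHet had 34 of 50 windows lower, and YHet had 6 of 7 higher. Most of these YHet windows reached the mean count needed for the test only through BG3-c2. Unplaced sequence went both ways, with 36 windows higher and 41 lower of 199 on U, and 13 higher and 53 lower of 580 on Uextra.

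**Figure D3:**
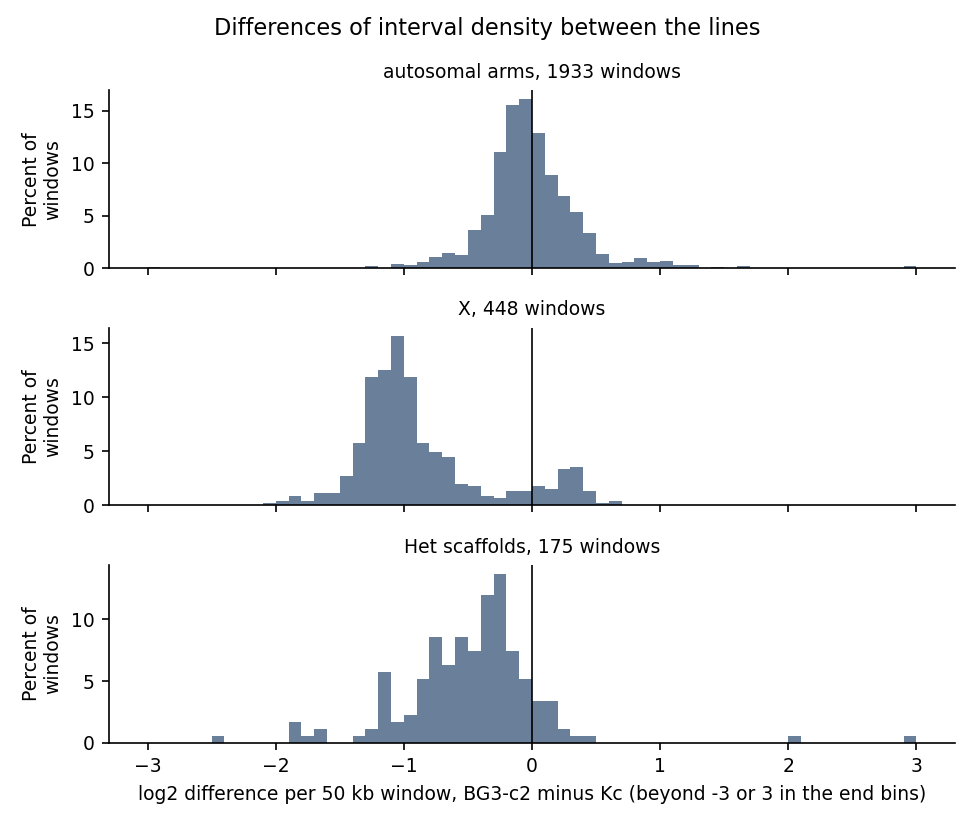
Distribution of log2 differences of interval density per 50 kb window, BG3-c2 minus Kc, as percent of windows, for the autosomal arms, X and the Het scaffolds. Autosomal windows centre near 0, most X windows lie near a median of -1.02 with a smaller group just above 0, and the Het scaffolds are shifted below 0.

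The difference on X was laid out in long blocks. Runs of at least 3 called windows, with at most 1 uncalled window between called ones, numbered 8 on X and covered 16972 kb, all lower in BG3-c2. The 3 with the most called windows spanned chrX:4300001-11450000, chrX:13300001-16100000 and chrX:16400001-21500000 in release 5 (dm3) coordinates, with 136, 55 and 100 called windows. Their mean log2 differences reached -1.15, in the second of them. Densities in these blocks were 0.474 to 0.498 in the 2 BG3-c2 libraries and 1.02 to 1.09 in the 2 Kc control libraries. The H1 libraries of Kc lay between 1.01 and 1.08 there, and naked DNA of BG3-c2 between 0.487 and 0.508. Without Kc replicate 1, 32, 13 and 25 of their windows were still called.

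Some parts of X between the runs held no lower window. The longest of these, chrX:1450001-4300000, held 57 windows, of which 0 were lower (2 at an unadjusted p under 0.05) and 2 were higher in BG3-c2 in limma, with a median log2 difference of 0.24. These blocks were picked out after their values were seen. Density in this block was 0.906 and 0.947 in BG3-c2 and 0.779 and 0.821 in Kc, so within BG3-c2 it stood well above the long blocks of the same chromosome. Naked DNA of BG3-c2 had 0.965 and the tetranucleosomal libraries at least 1.08, while the H1 libraries of Kc had 0.777 and 0.760. The largest rise of an X window, 0.69 on the log2 scale with an adjusted p of 0.0413 in limma, lay inside it at chrX:1850001-1900000. Its density was 1.57 and 1.33 in BG3-c2 and 0.906 and 0.848 in Kc. Shorter blocks with 0 lower windows lay at chrX:16100001-16400000 and chrX:21500001-21650000, with 6 and 3 windows and median log2 differences of -0.17 and 0.20. In the former, densities were 0.848 and 0.788 in BG3-c2 and 1.03 and 0.879 in Kc. In the latter they were at least 0.849 in BG3-c2 and 0.893 and 0.879 in Kc, where the lines overlap. Another such block, chrX:550001-650000, had 2 windows and a median log2 difference of -0.61. Its densities were 0.504 and 0.618 in BG3-c2 and 0.735 and 1.27 in Kc. The remaining blocks between the runs had medians of -0.64 to -0.45 and at least 1 lower window each. Near the proximal end of the arm lay the largest fall on X, at chrX:21750001-21800000, with densities of 0.845 and 0.752 in BG3-c2 and 3.29 and 3.39 in Kc, a log2 difference of -2.02 with a limma adjusted p of 0.000259.

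On the autosomes, 4 runs were higher in BG3-c2, covering 4000 kb, and 4 were lower, covering 1800 kb. The longest began at the distal tip of the left arm of chromosome 3. Across chr3L:1-2600000, 50 of 52 windows were higher in BG3-c2 with a mean log2 difference of 1.20. The density was 2.49 and 2.39 in BG3-c2 and 1.14 and 1.15 in Kc, so the replicates were close and the lines far apart. A further run at chr3L:2700001-2950000 had 2.59 and 2.43 in BG3-c2 and 1.16 and 1.09 in Kc. Naked DNA of BG3-c2 stood at 2.66 and 2.76 in these runs, and the tetranucleosomal libraries between 2.73 and 3.48, all on the side of BG3-c2. The H1 libraries of Kc stood between 1.13 and 1.19. Without Kc replicate 1, only 3 windows of the first run and 1 of the second were called, but the mean log2 difference of the first run lay between 1.09 and 1.25 whichever library was left out.

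The other autosomal runs were shorter than the first run of 3L, and their mean log2 differences were smaller than in both runs of 3L. At chr2L:5250001-5950000, where all 14 windows were higher in BG3-c2, densities were 0.946 and 0.979 in BG3-c2 and 0.525 and 0.632 in Kc. At chr2R:20650001-21100000, near the distal end of 2R, they were 1.17 and 1.26 in BG3-c2 and 0.614 and 0.618 in Kc. In both, BG3-c2 lay nearer the autosomal mean and Kc lay below it. Naked DNA of BG3-c2 had 0.978 and 1.16 in these runs.

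Lower runs on the autosomes had 2 kinds of level. At chr2L:550001-1350000 densities were 0.837 and 0.912 in BG3-c2 and 1.62 and 1.59 in Kc, and in the proximal runs chr3R:100001-400000 and chr3R:550001-800000 they lay between 0.970 and 1.06 in BG3-c2 and between 1.61 and 2.03 in Kc. In these, BG3-c2 lay near the autosomal mean and Kc above it. At chr2L:8550001-9000000, in contrast, densities were 0.525 and 0.585 in BG3-c2 and 0.930 and 1.16 in Kc, so there BG3-c2 was the line below the mean. Naked DNA of BG3-c2 had 0.470 in that run and between 0.972 and 0.995 in the other 3. Without Kc replicate 1, no window of the higher runs on 2L and 2R was called, and 1 to 3 windows in each lower run.

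**Figure D4:**
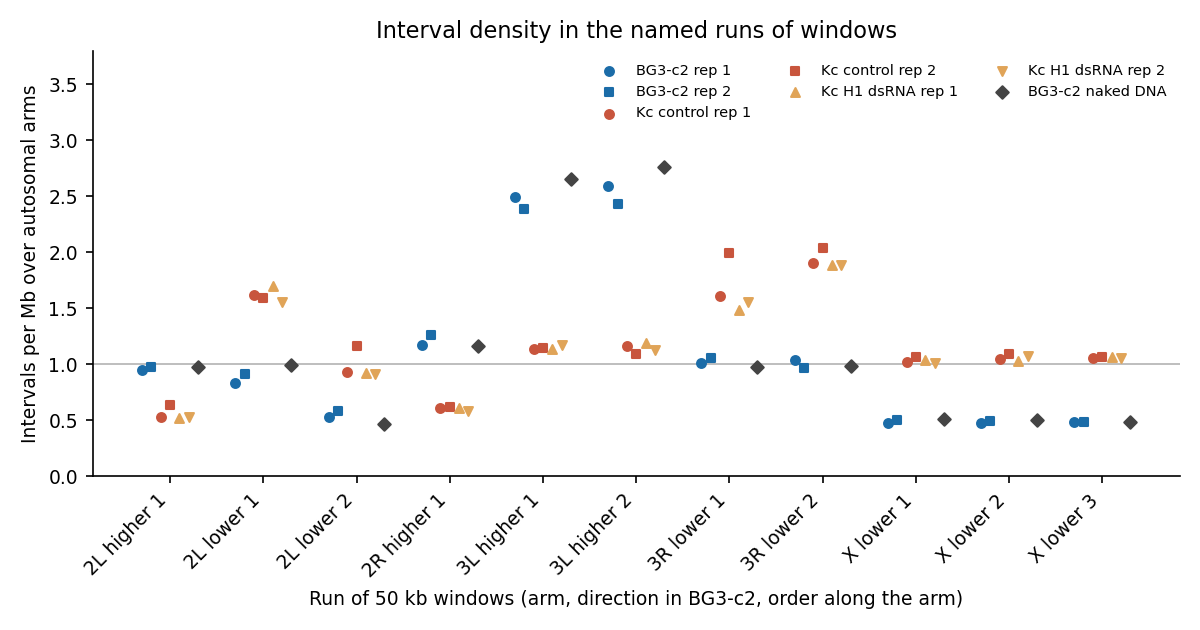
Interval density in the 11 named runs of called 50 kb windows, as intervals per Mb over the autosomal arms, with 1 point per nanopore library. Both BG3-c2 libraries lie apart from both Kc control libraries in every run shown, as the choice of the runs requires, and naked DNA of BG3-c2 lies with the BG3-c2 chromatin and the Kc H1 libraries with the Kc control.

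Libraries that played no part in the calls can be set beside them. Of the 82 higher autosomal windows, the naked BG3-c2 DNA lay nearer the BG3-c2 mean than the Kc mean of relative density in 81. Each tetranucleosomal BG3-c2 library did so in 72. The H1 libraries of Kc lay nearer the Kc mean in 81 and 73. Of the 51 lower autosomal windows, naked DNA lay on the BG3-c2 side in 50, and the H1 libraries on the Kc side in 47 and 40. Of the 335 lower X windows, naked DNA lay on the BG3-c2 side in 332, and the tetranucleosomal libraries in 284 and 287. The tetranucleosomal libraries had the GST dsRNA and lay with BG3-c2 in most called windows of the autosomal arms and X. On unplaced sequence they lay on the BG3-c2 side in all higher windows, 36 on U and 13 on Uextra. In lower windows there they did so in 20 and 19 of 41 on U and in 8 and 6 of 53 on Uextra. Naked DNA did so in 40 of those 41 and in 32 of those 53. Relative densities of the tetranucleosomal libraries were 1.75 and 4.42 on U and 3.53 and 17.0 on Uextra. On chromosome 4 they lay on the BG3-c2 side in neither of the 2 higher windows. The tetranucleosomal libraries also differ in platform and size selection. In them 33.7% and 67.7% of intervals were exact repeats, against at most 1.66% in the 4 libraries compared. Uextra took 42.8% and 74.7% of all their intervals. The part of dsRNA in the nanopore comparison was not tested.

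Over 1934 autosomal windows, counts over the autosomal total were correlated on the log2 scale, with a small constant added to each count. BG3-c2 replicate 1 and naked BG3-c2 DNA had a Pearson correlation of 0.918, and Kc control and Kc H1 replicate 1 of 0.947. Between BG3-c2 and Kc control libraries the correlations were 0.171 to 0.330. The replicates of BG3-c2 correlated at 0.736 and those of Kc at 0.551. The windows share libraries, depth and base composition, so these values only describe the libraries.

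Some single windows at chromosome ends differed by far more than the means of the runs. The first window of 3L, chr3L:1-50000, which also opens the run there, held 276 and 46 intervals in BG3-c2 and 8 and 1 in Kc. Its relative density was 1.18 and 1.12 in BG3-c2 and 0.0154 and 0.0942 in Kc. There BG3-c2 lay near the autosomal mean and Kc far below it, unlike in the run as a whole. Its log2 difference was 5.60 with a limma adjusted p of 0.000157, and naked DNA of BG3-c2 held 1477 intervals while the H1 libraries of Kc held 4 and 0. The last window of 2R, chr2R:21100001-21146673, was empty in both BG3-c2 libraries and held 200 and 4 intervals in Kc. Its limma adjusted p was 0.000259, and against the 3 intervals that a count of 0 allows over both BG3-c2 libraries its density was at least 35.3-fold lower in BG3-c2. The H1 libraries of Kc held 96 and 4 intervals there, and naked BG3-c2 DNA 4 of its 2992593. The windows of 2R beside it belong to the run that was higher in BG3-c2. Both windows hold the distal tip of their arm, and the tips of 2L, 3R and X were looked up after these values were seen. The first window of 2L held 192 and 31 intervals in BG3-c2 and 18 and 0 in Kc, with a log2 difference of 4.43 and a limma adjusted p of 3.12e-05, although the run nearest to it on that arm was lower in BG3-c2. The first window of X held 162 and 44 intervals in BG3-c2 and 525 and 10 in Kc, with an adjusted p of 0.367 in limma. The last window of 3R, too short to be tested, held 41 and 10 intervals in BG3-c2 and 25 and 0 in Kc. Of the 3 autosomal tips tested, those of 2L and 3L were higher and that of 2R was lower in BG3-c2. Each of these 3 reached the mean of 10 intervals needed for the test only through the line where it was high. The tip of 2R did so through Kc replicate 1 alone. Their p-values are therefore no independent support.

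The window chrXHet:150001-200000 carried most of the XHet difference. Its density was 2.44 and 2.40 in BG3-c2 and 11.4 and 13.8 in Kc, a log2 difference of -2.44 with a limma adjusted p of 3.12e-05. The Kc H1 libraries had 13.6 and 10.9, naked BG3-c2 DNA 1.43, and the tetranucleosomal libraries 2.48 and 2.50. Intervals in this window were also long in both lines, with medians of 1138.5 and 1232 bp for BG3-c2, against 1452 and 1964.5 bp for Kc. In the rest of XHet the 2 libraries of BG3-c2 had medians of 700 and 596 bp, against 843.5 and 1524.5 bp for Kc. Naked DNA had 848 bp in the window and 447 bp in the rest, so the greater length in that window was not confined to chromatin.

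Within YHet the lines differed in every window but the second. In chrYHet:100001-150000, where the rise was largest, BG3-c2 held 137 and 11 intervals and Kc 12 and 0, with a log2 difference of 4.24 and a limma adjusted p of 0.000385. Like most called windows of YHet, it reached the mean of 10 intervals needed for the test only through BG3-c2. The p-values of such windows are therefore no independent support. In chrYHet:50001-100000, in contrast, BG3-c2 held 128 and 8 intervals and Kc 199 and 5, and the adjusted p was 0.572 in limma. That window held most of the Kc intervals on YHet.

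Other scaffolds held large differences in both directions. The largest rise among the Het scaffolds lay at chr3LHet:100001-150000, with 47 and 5 intervals in BG3-c2 and 10 and 0 in Kc. On U the largest rise, at chrU:2750001-2800000, had 109 and 10 intervals in BG3-c2 and 11 and 0 in Kc. Both of these windows reached the mean of 10 intervals needed for the test only through BG3-c2. The largest fall on U, at chrU:1400001-1450000, had 165 and 19 in BG3-c2 and 2355 and 44 in Kc, with a log2 difference of -2.72 and a limma adjusted p of 8.06e-05. On Uextra the largest fall, at chrUextra:27500001-27550000, had densities of 0.448 and 0.242 in BG3-c2 and of 1.74 and 11.0 in Kc, so the Kc replicates differed more from each other than the nearer of them did from BG3-c2.

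Spacing by region was read from dinucleosomal intervals of 270 to 460 bp, whose mean length in a region was taken minus that on the autosomal arms of the same library. On X it was -1.07 and -1.84 bp for BG3-c2, against -0.482 and 3.89 bp for Kc, with standard errors of 0.375, 0.990, 0.176 and 2.17 bp in that order. The lines did not overlap and differed by -3.16 bp, but without Kc replicate 2 the difference was -0.97 bp. On the Het scaffolds it was 0.800 and 0.220 bp for BG3-c2, against -0.625 and 1.30 bp for Kc, where the lines overlap. In the trinucleosomal range the lines did not overlap on X either, with -1.29 and -1.71 bp for BG3-c2, against -0.630 and -1.07 bp for Kc. That difference was -0.65 bp, and the X difference was below 0 under every alternative run, but 2 libraries a line cannot pass an exact permutation test.

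On the Het scaffolds and on X, only the deeper library of each line held enough intervals for a slope of the ladder. On the Het scaffolds the repeat length was 189.1 ± 3.45 bp for BG3-c2, against 177.8 ± 1.81 bp for Kc (± SE of the slope). On X it was 177.5 ± 3.65 and 180.1 ± 1.81 bp. Without the proximal 1 Mb of X, the value of BG3-c2 was 196.0 ± 7.41 bp, so the slope on X in that library depends on which maxima are found. These values have no replicate check.

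Among smaller regions, 3RHet had dinucleosomal intervals longer than the autosomal arms in both BG3-c2 libraries, by 2.06 and 3.12 bp, and shorter in both Kc libraries, at -0.716 and -3.32 bp. The standard errors were 0.780, 2.53, 0.408 and 5.32 bp in that order, and the trinucleosomal intervals of over 460 and up to 650 bp overlapped between the lines. Mitochondrial intervals in the dinucleosomal range were shorter than autosomal ones, with differences of -16.7 and -29.0 bp for BG3-c2, -4.84 and -5.49 bp for Kc and -8.69 bp for naked DNA. In the autosomal runs that were higher in BG3-c2, dinucleosomal length differed from the rest of the autosomes by -0.30 and 0.32 bp for BG3-c2, against 0.10 and -0.98 bp for Kc. In the lower runs it differed by 0.75 and 3.22 bp for BG3-c2, against 0.56 and 6.59 bp for Kc. The lines overlapped in both classes of run, so the large differences of density there had no counterpart in dinucleosomal length that these libraries could resolve.

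**Figure D5:**
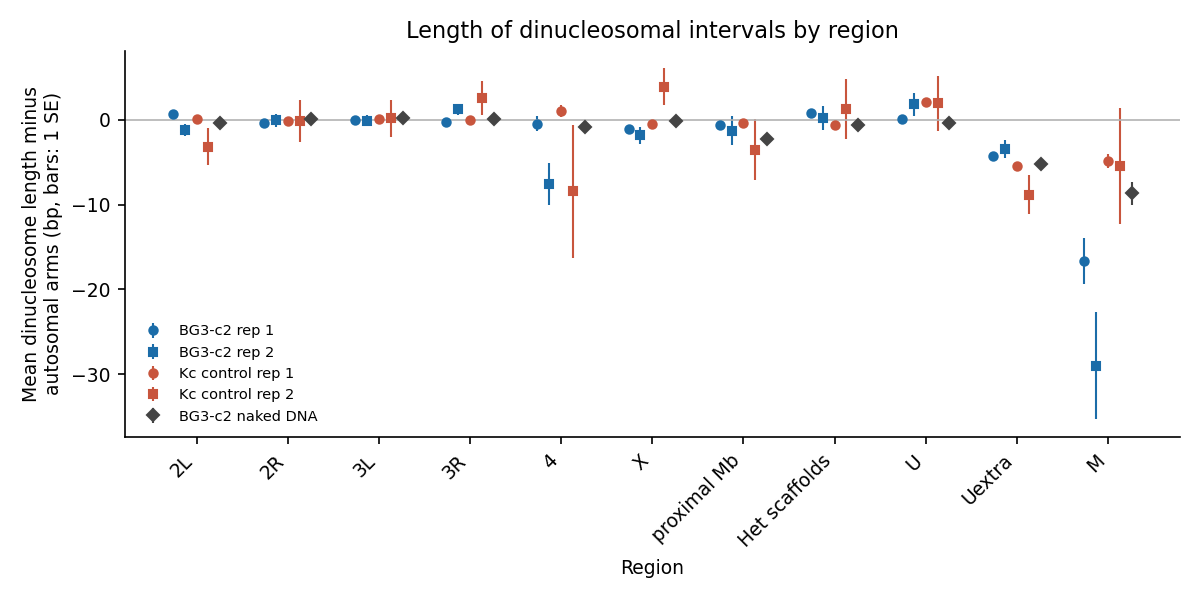
Mean length of intervals of 270 to 460 bp in each region minus that on the autosomal arms of the same library, in bp, with bars of 1 SE over intervals, for the 2 BG3-c2, the 2 Kc control and the naked DNA libraries. Most regions lie within a few bp of 0 in all libraries, and mitochondrial intervals (M) lie lowest in BG3-c2, at -16.7 and -29.0 bp.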

How the data were processed

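In the deposited tables every line is the genome interval of an aligned fragment. The authors deposited these positions without counts, and a score per interval in all nanopore tables used here except that of BG3-c2 replicate 2; the score looks like a mapping quality, which is not stated. The submitters' processing notes name dm3 (release 5), Bowtie 1.1.1 and bedtools without their roles. Coordinates count from 1.

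Interval midpoints were counted in 50 kb windows, keeping windows of at least 10 kb with a mean of at least 10 intervals over the 4 libraries. They were compared with limma 3.58.1 (voom, lmFit, eBayes) in R 4.3.3, with library size set to the intervals on 2L, 2R, 3L and 3R. Chromosome length was the largest interval end. Relative density is intervals per Mb over that on the same 4 arms. For ladder maxima, the length histogram (Gaussian smooth, SD 10 bp) was divided by a wider smooth (SD 100 bp), and the search moved up by steps of 130 to 230 bp. Slopes needed 20000 intervals. Single values were compared with exact permutation tests in Python 3.11.15, and intervals of shares and densities are at 95%.

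Runs on the autosomal arms were ranked by called windows, up to 5 per direction, with 3 on X. The members and lists were chosen with earlier results of these data known. Alternatives were other window sizes, filters, scalings, lengths and libraries, and a fit with the replicate number as a block. The MNase titration and ISWI libraries were not used here, nor was a gene annotation or a sequence, since no genome of release 5 was used.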

Additional observations from a re-analysis of the deposited data

Results flagged for a closer look

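For several regions, both BG3-c2 libraries lay on the other side of the autosomal mean from both Kc libraries, or of the autosomal length, and beyond the exact permutation test of 2 against 2 these differences were not tested. On the log2 scale, the density of 2L was -0.0280 and -0.0602 in BG3-c2 and 0.0020 and 0.0168 in Kc, a difference of -0.0535. The density of 3R differed in the same manner by -0.0939. Both arms are part of the autosomal mean, and so are 3L and 2R. The relative density of 3L was 1.13 and 1.099 in BG3-c2 and 1.00 and 0.997 in Kc. That of 2R differed by -0.0083 on the log2 scale, and there the lines overlapped. How far the value of 3L moves those of the other arms was not tested. The density of 3LHet was -0.0701 and -0.579 in BG3-c2 and 0.182 and 0.199 in Kc, a difference of -0.515. The density of 3RHet was -0.0667 and -0.535 in BG3-c2 and 0.702 and 0.736 in Kc, a difference of -1.02. All 5 Het scaffolds together differed by -0.734, and the proximal megabase of the arms by -0.662, with -0.0732 and -0.413 in BG3-c2 and 0.421 and 0.417 in Kc. Dinucleosomal length on 3RHet, minus the autosomal arms, differed by 4.61 bp. On 3L it differed by -0.187 bp, with all 4 values within 0.143 bp of 0.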

How the results depend on the processing

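The differences in density of X, YHet, mitochondrial DNA and the Het scaffolds and the differences in both ladder shares kept their direction under every alternative that gave a value. With the replicate number as a block, 122 windows were higher and 473 lower, against 143 and 527 without it. The block changed no direction. Deviations of same-numbered libraries correlated at 0.0214 over 1934 windows. Kc replicate 2 held 20512 intervals on the autosomal arms, so its windows held few counts each. That correlation therefore cannot show whether same-numbered libraries share more than a number. Leaving out 1 library at a time, 7 to 253 windows were higher and 142 to 723 lower, and the Het dinucleosomal length, 0.172 bp with all libraries, ranged from -0.791 to 1.14 bp. That length was -0.940 bp in the trinucleosomal range and -1.70 bp for intervals of 300 to 440 bp. The repeat length difference was -1.75 bp with maxima 2 to 4. With the tetranucleosomal BG3-c2 libraries in place of the nanopore ones, the density of chromosome 4 differed by -0.76 on the log2 scale, and 1000 windows were higher and 1168 lower. Windows of 100 kb gave 74 higher and 326 lower, intervals of 270 to 460 bp 7 and 52, and a limma trend without weights 80 higher. With a score of at least 20 and without BG3-c2 replicate 2, an alternative chosen after the data were seen, 46 were higher and 220 lower. The density of YHet had no value for intervals of 270 to 460 bp, since Kc replicate 2 held none there. Of 143 values for single runs, 120 moved by no more than the spread between replicates, 23 by more, and 0 reversed. Depth limits YHet, with 9 intervals in Kc replicate 2, and regional lengths in that library; the cause of the other shifts was not tested.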
